A study of Rattus norvegicus with 6 samples.

Results

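The genes described here are 9 core targets of the transcription factor NRF2, measured in rat renal cortex after dosing with the herbicide monuron. They are Nqo1, Srxn1, Txnrd1, Gclc, Gclm, Slc7a11, Me1, Gsr and Osgin1. Every non-control probe whose accession maps to one of them was taken, which gave 19 of the 61537 non-control probes. Of these, 16 probes of 8 genes passed the detection filter and were tested. Slc7a11 was the member that did not pass.

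Total RNA from renal cortex of male Sprague-Dawley rats, strain Crl:CD(SD), bought at 5 weeks of age, was measured on Agilent arrays that read a single dye, Cy3. The controls received corn oil, the vehicle, and the other group received monuron, a phenylurea herbicide, at 200 mg/kg/day, both for 4 weeks. Each group has 3 arrays, which the design text calls biological replicates. The 2 groups were hybridised on separate slides that were scanned on different days. The effects of treatment, slide and day therefore cannot be told apart in any value given here.

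NRF2 is a transcription factor that is held in the cytoplasm and marked for degradation by the adaptor KEAP1. Electrophiles and oxidants modify KEAP1, after which NRF2 accumulates, pairs with a small MAF protein and binds the antioxidant response element, a site that the repressor BACH1 can also occupy. Its targets encode enzymes that reduce quinones, make and recycle glutathione, keep thioredoxin reduced and supply NADPH, and the kidney tubule, which takes up and concentrates many foreign compounds, is among the tissues that rely on them.

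A level is given throughout as the processed spot signal divided by the 75th percentile of the signal on the same array. That percentile lay between 824 and 922 units, and between 60.9% and 70.4% of an array's probes were marked by the scanner software as well above background. Levels depend on the probe and are compared between arrays only, never between genes. Differences are log2 fold changes, monuron minus corn oil, with their standard errors (SE), and adjusted p-values come from limma with Benjamini-Hochberg adjustment over all 30229 genes, or over all 41125 probes where a probe p-value is named. A gene is called, and said to rise or fall, where its adjusted p is under 0.05. A gene with several probes is represented by its brightest one. In pieces of whole cortex, fewer cells of a type and less RNA per cell cannot be told apart.

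The 12 proximal tubule markers and the other nephron markers were marked as well above background on all 6 arrays. The summed level of the proximal tubule list was 2727 to 3155 in corn oil and 2427 to 2623 in monuron, with 0 of 12 called and 5 of 12 lower without overlap of the groups, as 10.3% of all genes tested were. Of all genes tested, 0.949% were called higher. Of the 5 erythroid markers tested 4 were called, with summed levels of 488 to 669 against 1091 to 1143, and of the 9 injury markers 4 were called, with summed levels of 37.2 to 43.5 against 50.4 to 65.6. The 4 injury calls include Havcr1, which passed the filter through the monuron arrays alone, with 2 of 3 corn oil arrays well above background. The 14 hepatocyte markers tested had 0 calls, with 1 higher and 1 lower at an unadjusted p under 0.05 and summed levels of 23.3 to 46.1 and 32.4 to 71.1. Their log2 fold change was above 0 in 12 of 14, with a median of 0.55, against 0.02 for all genes tested. Of the 14, Fgg and Serpina1 passed the filter through the monuron arrays alone. The summed hepatocyte levels were highest on corn oil replicate 3 and monuron replicate 1. On these the liver protein albumin (Alb) had levels of 6.34 and 15.3 against 1.09 to 4.35 on the other arrays. Of the 10 macrophage and leukocyte markers 6 were tested, with 0 called, 1 lower at an unadjusted p under 0.05 and summed levels of 100.04 to 150 in corn oil and 90.3 to 119 in monuron. Over all genes tested, 10.9% were higher and 6.73% lower at an unadjusted p under 0.05. Apart from fits that allow for the hepatocyte markers, the part of these markers in the differences described next was not tested.

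With monuron the quinone reductase gene Nqo1 rose 5.33-fold and the sulfiredoxin gene Srxn1 rose 3.24-fold, and 0 members fell. Of the 7 members well above background on all 6 arrays, 2 were called higher, where 0.834% of all such genes were. Their log2 fold change was above 0 in 7 of 7, against 52.8% of all such genes. That sign is not stable for 4 of them: with the arrays scaled to their spike-in controls, a scaling that moves the median of all genes from 0.02 to -0.46, Txnrd1, Me1, Gsr and Osgin1 lay below 0. An unadjusted p under 0.05 was reached by 4 of the 7, against 9.95% of such genes, and the groups did not overlap for 3 of the 7, against 15%. The median of the 7 was 0.41, against 0.01 for all such genes. Gclm, which passed the filter through the monuron arrays alone, is left out of these counts. With it, 2 of 8 were called, where 0.949% of all tested genes were called higher and 0.414% lower.

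**Figure D1:**
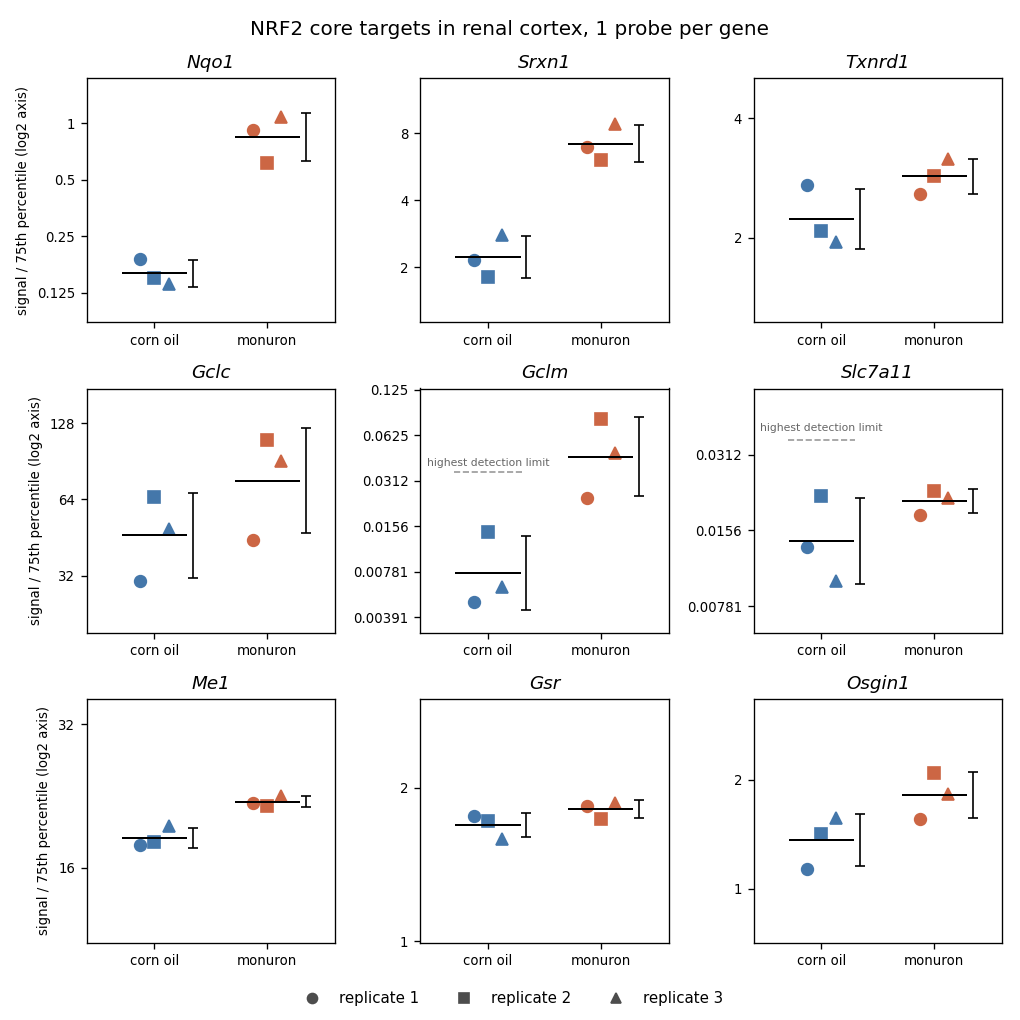
Level of each of the 9 NRF2 targets by array, as signal over the array's 75th percentile on a log2 axis, for its brightest probe. Symbols are replicates, horizontal bars the mean of the log2 levels and brackets its SD (n = 3). Nqo1, Srxn1 and Me1, 3 of the 7 members well above background on all 6 arrays, show groups that do not overlap. Of all such genes, 15% were higher without overlap. The Gclm groups do not overlap either, but its corn oil values are below background. The Gclm and Slc7a11 points of corn oil lie under the dashed line. Labelled as the highest detection limit, it is the highest of the corn oil arrays' lowest signals well above background.

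The promoters of the 2 called genes are shown to set the sequence around their start sites beside the values. They run from 250 bases before the start to 10 bases after it, 5′ to 3′ on the gene's strand, from RefSeq (build GRCr8), at chr19:52220258-52220517 (minus strand) for Nqo1 and chr3:161064562-161064821 (plus strand) for Srxn1. Capitals mark matches to TGACNNNGC or TGAGNNNGC, letter patterns of the antioxidant response element, on either strand; a match on the other strand reads as its reverse complement.
Nqo1: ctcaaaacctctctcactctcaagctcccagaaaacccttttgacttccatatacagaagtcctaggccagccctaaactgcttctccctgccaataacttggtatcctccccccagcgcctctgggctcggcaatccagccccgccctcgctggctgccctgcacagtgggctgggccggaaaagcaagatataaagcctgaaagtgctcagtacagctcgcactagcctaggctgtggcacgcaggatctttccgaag
Srxn1: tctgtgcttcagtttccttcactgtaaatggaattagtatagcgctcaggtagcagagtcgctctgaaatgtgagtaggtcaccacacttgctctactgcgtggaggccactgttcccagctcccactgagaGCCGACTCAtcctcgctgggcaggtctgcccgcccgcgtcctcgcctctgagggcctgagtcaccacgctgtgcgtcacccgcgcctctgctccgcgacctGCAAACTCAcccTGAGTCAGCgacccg

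Windows of 300 bases, from 250 before to 50 after the start, were found for 8 of the 9 members, with 9 windows in all since Txnrd1 has 2. Srxn1 held 3 matches to TGAGNNNGC. They read TGAGTCGGC and TGAGTTTGC on the opposite strand, starting 118 and 17 bases before the start, and TGAGTCAGC on the gene's strand, from 5 bases before the start. The last one contains TGAGTCA, a pattern of the AP-1 site that reads TGACTCA on the other strand, and a separate TGAGTCA lies 62 bases before the start. The Nqo1 window held no match to either pattern. It held GCGTG, the core of the site bound by the aryl hydrocarbon receptor, on the opposite strand 10 bases before the start. GCGTG was also found in the windows of Srxn1, Txnrd1, Gclc, Me1 and Osgin1, so that 6 of the 8 members hold it. Matches also lay in the windows of Txnrd1, Gclm and Me1, shown here with 25 bases on each side, at chr7:22755949-22756007 (minus strand), chr2:213031938-213031996 (plus strand) and chr8:96540378-96540436 (minus strand).
Txnrd1: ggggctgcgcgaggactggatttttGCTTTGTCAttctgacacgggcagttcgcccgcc
Gclm: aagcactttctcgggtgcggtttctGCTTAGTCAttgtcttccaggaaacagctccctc
Me1: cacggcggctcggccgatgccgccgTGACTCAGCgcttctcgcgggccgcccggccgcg

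The Txnrd1 match (TGACAAAGC) and the Gclm match (TGACTAAGC) are on the opposite strand, 78 and 172 bases before the start. The Me1 match (TGACTCAGC), 167 bases before the start, is on the gene's strand and contains TGACTCA. Of the 33469 promoters of this length, 12.1% hold TGACNNNGC, 17.2% TGAGNNNGC and 27.1% at least 1 of the pair, set against 4 of the 8 members with a window. TGAGTCA occurs in 4.63% and GCGTG in 29.7%. Gclc, Slc7a11 and Osgin1 had none of the longer patterns. A match describes letters in a window, and its absence says only that these letters are not in that window.

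Nqo1 encodes NAD(P)H quinone dehydrogenase 1, which reduces quinones directly to hydroquinones and so avoids the reactive semiquinone. Its brighter probe had levels of 0.190, 0.150 and 0.139 in corn oil replicates 1 to 3 and of 0.918, 0.609 and 1.08 in monuron replicates 1 to 3. The lowest monuron array was above the highest corn oil array, and monuron replicate 2 was the lowest of its group. The log2 mean was -2.66 ± 0.23 in corn oil and -0.24 ± 0.43 in monuron (SD, n = 3), a log2 fold change of 2.41 ± 0.24 (SE), or 5.33-fold with a 95% interval of 3.55 to 8.01 (limma adjusted p = 0.0176). The dimmer Nqo1 probe gave levels of 0.0552, 0.0413 and 0.0376 against 0.172 and 0.274 in monuron replicates 2 and 3. Its spot on monuron replicate 1 was an outlier in the scanner's own marking and was left out. On the remaining 5 arrays it was 4.92-fold higher (limma probe-adjusted p = 0.0424). The limma call of Nqo1 held without monuron replicate 2 (adjusted p = 0.0344) and was lost when any other array was left out, with adjusted p-values of 0.0539, 0.0726 and 0.0665 without corn oil replicates 1, 2 and 3 and of 0.0875 and 0.0679 without monuron replicates 1 and 3.

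Nqo2, the paralog of Nqo1 that uses dihydronicotinamide riboside in place of NAD(P)H, had levels of 8.73, 8.01 and 8.02 in corn oil and 7.89, 7.61 and 8.09 in monuron. The groups overlapped and the log2 fold change was -0.07 ± 0.07 (limma adjusted p = 0.642). The log2 ratio of Nqo1 to Nqo2 within an array, which does not depend on scaling between arrays, was higher by 2.48 with monuron, from -5.70 ± 0.17 to -3.22 ± 0.38 (SD, n = 3). With 3 arrays against 3, a two-sided exact permutation test cannot give less than 0.1, which it gave here (adjusted p = 0.133 over 4 gene pairs). In the list of 12 quinone and carbonyl reductases tested, 1 was called (Nqo1), where 0.949% of all genes tested were called higher. At an unadjusted p under 0.05, 3 were higher and 1 was lower, against 10.9% and 6.73% of all genes. The median log2 fold change was 0.25, against 0.02 for all genes tested. Akr7a3, an aldehyde reductase, was higher by 0.80 ± 0.17 without a call (limma adjusted p = 0.0970). Akr7a2, of the same family, had levels of 70.6, 69.5 and 73.0 in corn oil and 61.6, 62.8 and 63.7 in monuron, without overlap and without a call (difference -0.18 ± 0.06, limma adjusted p = 0.211). Akr1b8, an aldo-keto reductase, had levels of 4.96, 0.694 and 9.07 in corn oil and 26.6, 31.6 and 23.8 in monuron. Its groups did not overlap, but corn oil replicate 2 lay far below its group and the difference of 3.11 ± 0.93 was not called (limma adjusted p = 0.184).

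Srxn1 encodes sulfiredoxin, which uses ATP to bring overoxidised peroxiredoxins back into their cycle. Its brighter probe had levels of 2.16, 1.81 and 2.79 in corn oil and 6.92, 6.06 and 8.82 in monuron. Every monuron array was above every corn oil array, and replicate 2 was the lowest and replicate 3 the highest in both groups. The log2 mean was 1.15 ± 0.31 in corn oil and 2.84 ± 0.27 in monuron (SD, n = 3), a difference of 1.70 ± 0.21 (SE), or 3.24-fold with a 95% interval of 2.28 to 4.62 (limma adjusted p = 0.0308). The dimmer Srxn1 probe gave 0.0633, 0.0420 and 0.0452 against 0.109, 0.0957 and 0.151. In corn oil it reached well above background on 2 of 3 arrays, its groups did not overlap, and its difference of 1.24 ± 0.23 was not called (limma probe-adjusted p = 0.0782). The call of Srxn1 held without corn oil replicate 3 (adjusted p = 0.0482) and was lost when any other array was left out, with adjusted p-values of 0.0978 and 0.0858 without corn oil replicates 1 and 2 and of 0.103, 0.0913 and 0.105 without monuron replicates 1, 2 and 3. With a hepatocyte marker score in the fit, the differences were 2.47 for Nqo1 and 1.60 for Srxn1 and neither was called (limma adjusted p = 0.0752 and 0.110).

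**Figure D2:**
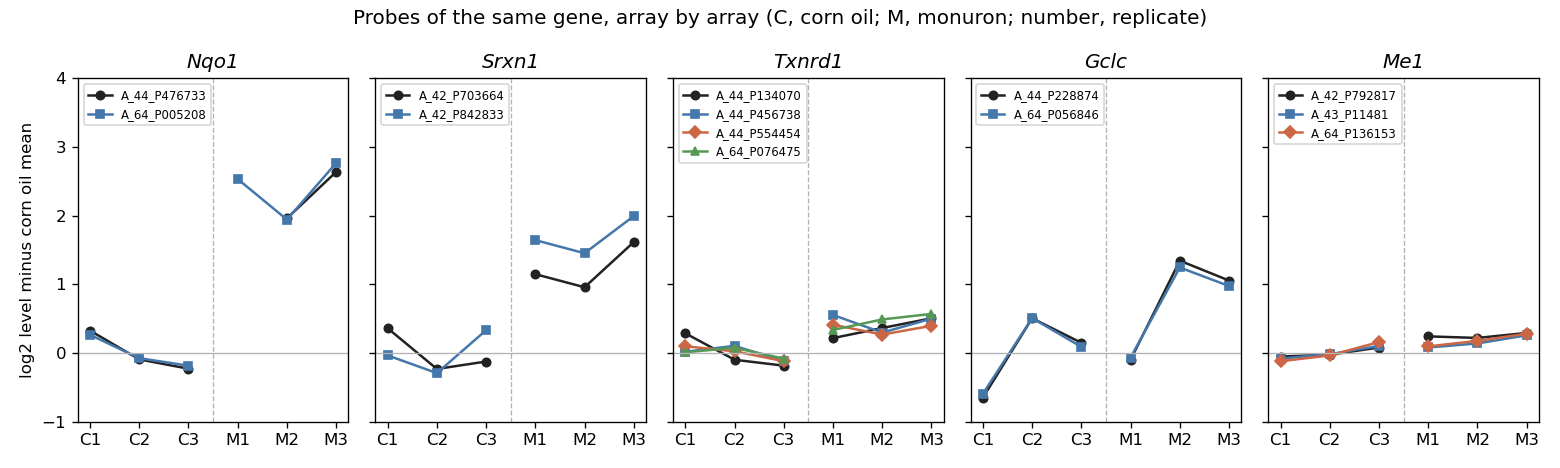
Log2 level of every tested probe of Nqo1, Srxn1, Txnrd1, Gclc and Me1 on each array, minus that probe's corn oil mean; lines join the arrays of a group and imply no order. The Nqo1 probes gave differences of 2.30 and 2.41 and the 4 Txnrd1 probes 0.36 to 0.46, while Gclc was lowest on replicate 1 of both groups on both of its probes.

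Txnrd1 encodes cytosolic thioredoxin reductase, a selenoprotein that passes electrons from NADPH to thioredoxin. Its brightest probe had levels of 2.71, 2.07 and 1.95 in corn oil and 2.58, 2.86 and 3.15 in monuron. Corn oil replicate 1 lay above monuron replicate 1, so the groups overlapped. The difference was 0.36 ± 0.15 (SE), or 1.28-fold with a 95% interval of 0.996 to 1.66, and was not called (limma adjusted p = 0.290). The other 3 Txnrd1 probes, also uncalled, gave 0.45 ± 0.10, 0.36 ± 0.09 and 0.46 ± 0.09, with limma probe-adjusted p-values of 0.112, 0.126 and 0.0844. On these probes the groups did not overlap, as on 14.9% of all probes in this direction. The 4 probes thus gave sizes between 0.36 and 0.46, whichever one represented the gene, but under the spike-in scaling the brightest one gave -0.13. Within an array, the log2 ratio of Srxn1 to Txnrd1 was higher by 1.34 with monuron, from -0.01 ± 0.45 to 1.33 ± 0.22 (SD, n = 3; exact permutation p = 0.1, adjusted p = 0.133).

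Among the 15 thioredoxin and peroxiredoxin genes tested, Srxn1 was the single call, where 0.949% of all genes tested were called higher. Thioredoxin itself (Txn1) had levels of 130, 137 and 140 in corn oil and 148, 170 and 157 in monuron, a difference of 0.22 ± 0.08 (limma adjusted p = 0.232). The mitochondrial reductase gene Txnrd2 had 3.61, 3.12 and 3.60 against 2.67, 2.63 and 2.83, a difference of -0.34 ± 0.08 (limma adjusted p = 0.130). Neither pair of groups overlapped, and the Txnrd1 and Txnrd2 differences had opposite signs, although 0 of the 3 genes were called. The median of the list was 0.03, close to the 0.02 of all genes tested.

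Gclc and Gclm encode the catalytic and the modifier subunit of glutamate-cysteine ligase, the enzyme of the rate-limiting step of glutathione synthesis. The brighter Gclc probe had levels of 30.6, 65.6 and 49.1 in corn oil and 44.1, 109 and 90.8 in monuron. Replicate 1 was the lowest and replicate 2 the highest of each group, and monuron replicate 1 lay below corn oil replicates 2 and 3. The difference was 0.72 ± 0.43 (SE), or 1.64-fold with a 95% interval of 0.791 to 3.41 (limma adjusted p = 0.441). This SE compares with a median of 0.11 over all genes tested. The second Gclc probe, dimmer, gave 1.12, 2.50 and 1.95 against 1.64, 4.48 and 3.66, the same order of arrays, and a difference of 0.77 ± 0.46 (limma probe-adjusted p = 0.447). Slc7a13, an amino acid transporter of the last segment of the proximal tubule and one of the markers listed for that tubule, followed this order of arrays too. Its levels were 10.1, 24.3 and 22.9 in corn oil and 19.5, 50.8 and 49.1 in monuron (difference 1.04 ± 0.51, limma adjusted p = 0.356). It was picked from a list of 12 markers, of which 2 had a difference above 0, with a median of -0.25. In that list Kap also followed the order of arrays, while Lrp2 and Slc22a6 did not. The part of Slc7a13 in the spread of Gclc was not tested.

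Gclm, seen by 1 probe, had levels of 0.00494, 0.0144 and 0.00620 in corn oil and 0.0242, 0.0798 and 0.0477 in monuron. The probe was not well above background in corn oil, on 0 of 3 arrays, and was so with monuron on 3 of 3. On the corn oil arrays the lowest signals of any probe that counted as well above background were at levels of 0.0152, 0.0359 and 0.0237. The mean Gclm level with monuron was 1.92-fold above these, with monuron replicate 1 below the second of them. This fold is not a strict minimum. A probe can exceed the lowest such signal of an array without being well above background, as Slc7a11 did with monuron. The fitted difference of 2.57 ± 0.57 rests on values below background and is not a bound, and it was not called (limma adjusted p = 0.109). Raising low values to a floor gave a difference of 0.94 ± 0.51 (SE, limma adjusted p = 0.410), and normexp gave 0.62. The limma adjusted p ranged from 0.0182 to 0.410 over the alternatives, of which the spike-in scaling alone called Gclm. The Gclc and Gclm probes both had monuron replicate 2 highest and replicate 1 lowest of their group.

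Slc7a11 encodes the light chain of the cystine transporter xCT, which brings in the cystine from which glutathione is made. None of its 3 probes reached well above background on a single array. The brightest gave 0.0134, 0.0215 and 0.00981 in corn oil and 0.0181, 0.0224 and 0.0210 in monuron, and no fold is given. Its partner Slc3a2, the heavy chain shared with other transporters, had levels of 27.1, 21.9 and 21.4 against 21.3, 18.4 and 21.7, with overlapping groups and a difference of -0.19 ± 0.12 (limma adjusted p = 0.469). Among 13 tested targets of ATF4, a stress-induced factor that also drives Slc7a11, 0 were called in either direction. At an unadjusted p under 0.05, 1 was higher and 3 were lower, against 10.9% and 6.73% of all genes tested. Their median was -0.04, against 0.02.

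Gsr encodes glutathione reductase, which returns oxidised glutathione to its reduced form with NADPH. Its levels were 1.76, 1.72 and 1.59 in corn oil and 1.84, 1.73 and 1.87 in monuron. Corn oil replicate 1 lay above monuron replicate 2, so the groups overlapped, and the difference was 0.10 ± 0.07, or 1.07-fold with a 95% interval of 0.949 to 1.22 (limma adjusted p = 0.513). Its upper bound lies under the lower bounds of 3.55 for Nqo1 and 2.28 for Srxn1. Under the spike-in scaling the difference was -0.39 and called (limma adjusted p = 0.00641), where 20229 genes were called lower. Of the 17 genes of glutathione synthesis and recycling tested, which include Gclc, Gclm and Gsr (Gclm through the monuron arrays alone), 0 were called. At an unadjusted p under 0.05, 2 were higher and 3 lower, against 10.9% and 6.73% of all genes tested. Their median was 0.10, against 0.02. The glutathione synthetase gene Gss had levels of 7.22, 9.93 and 9.02 against 9.62, 12.5 and 11.7 (difference 0.38 ± 0.16, limma adjusted p = 0.295), with replicate 1 lowest and replicate 2 highest in both groups, the order seen for Gclc. The efflux pump gene Abcc4 was higher by 0.82 ± 0.14 without a call (limma adjusted p = 0.0688).

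Me1 encodes cytosolic malic enzyme, which makes NADPH from malate. Its brightest probe had levels of 17.8, 18.2 and 19.5 in corn oil and 21.9, 21.5 and 22.6 in monuron. The groups did not overlap and the spread within each was small. The difference was 0.25 ± 0.07 (SE), or 1.19-fold with a 95% interval of 1.06 to 1.33, and was not called (limma adjusted p = 0.153). The other 2 Me1 probes overlapped between groups and gave 0.16 ± 0.08 and 0.18 ± 0.10. The sign of the Me1 difference rests on the scaling, since it was -0.24 with spike-in scaling. There Me1 was called lower (limma adjusted p = 0.0416), as 20229 genes were. Me1 is also a gene of fat synthesis, and in the list of 8 tested lipogenic genes, which includes Me1 itself, 0 were called. At an unadjusted p under 0.05, 2 were higher, Me1 and Mlxipl, and 0 lower, against 10.9% and 6.73% of all genes tested.

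Tkt, the transketolase of the pentose phosphate pathway, had levels of 227, 227 and 198 in corn oil and 269, 273 and 265 in monuron. The groups did not overlap, and the difference of 0.31 ± 0.08 was not called (limma adjusted p = 0.135). The call in the NADPH list, 1 of 16 tested, was Aldh1l1, which makes NADPH as it oxidises formyl-tetrahydrofolate. Aldh1l1 had levels of 17.9, 19.0 and 20.3 against 29.0, 30.4 and 30.1 and rose by 0.65 ± 0.07 (limma adjusted p = 0.0242), a call kept in 11 of 22 alternatives and lost without any 1 of the 6 arrays (adjusted p from 0.0529 to 0.114). At an unadjusted p under 0.05, 6 of the 16 were higher and 1 lower, against 10.9% and 6.73% of all genes tested. The median was 0.15, against 0.02, and 0.949% of all genes tested were called higher.

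Osgin1, an oxidative stress-induced growth inhibitor, had levels of 1.14, 1.41 and 1.57 in corn oil and 1.56, 2.09 and 1.83 in monuron. Corn oil replicate 3 lay just above monuron replicate 1, so the groups overlapped. The difference was 0.41 ± 0.16 (SE), or 1.33-fold with a 95% interval of 1.01 to 1.75, and was not called (limma adjusted p = 0.269). With spike-in scaling it was -0.08.

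**Figure D3:**
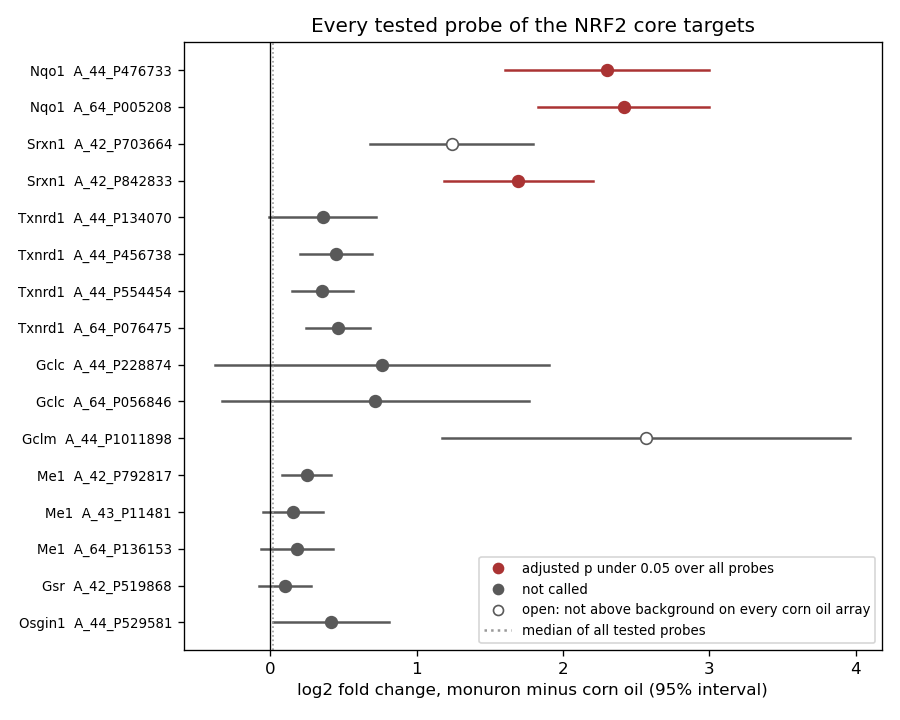
Log2 fold change with its 95% interval for each of the 16 tested probes of the NRF2 targets. Red marks the 3 probes called over all 41125 probes, both of Nqo1 and the brighter one of Srxn1, and open symbols are probes not well above background on every corn oil array; the widest intervals are those of Gclc and Gclm.

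Probe by probe, 3 of the 16 tested probes were called higher, where 0.832% of all tested probes were. The Gclm probe and the dimmer Srxn1 probe passed the filter through the monuron arrays alone. Among the other 14, 3 were called higher, against 0.721% of all probes well above background on the 6 arrays, and the groups did not overlap for 7, against 14.4%. Probes of a gene share its RNA and are not independent of each other.

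Of the 10 genes tested that control the pathway, 1 was called higher and 0 lower, against 0.949% and 0.414% of all genes tested. Their median was 0.09, against 0.02. Nfe2l2, which encodes NRF2 itself, had levels of 15.2, 15.2 and 13.8 in corn oil and 15.7, 14.8 and 14.4 in monuron, a difference of 0.02 ± 0.07 (limma adjusted p = 0.906). Keap1 had 1.18, 1.14 and 1.12 against 1.26, 1.23 and 1.27, which did not overlap, and a difference of 0.13 ± 0.06 (limma adjusted p = 0.332). NRF2 activity is set mainly by protein stability, which arrays do not measure. With spike-in scaling these differences were -0.47 for Nfe2l2 and -0.36 for Keap1. Both were then called lower (limma adjusted p = 0.00583 and 0.00596), as 20229 genes were.

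Bach1, the repressor of antioxidant response element genes, was the call among the regulators. Its brightest probe had levels of 0.216, 0.220 and 0.214 against 0.290, 0.322 and 0.287 and rose by 0.47 ± 0.07 (limma adjusted p = 0.0495). The other 2 Bach1 probes overlapped between groups and gave 0.06 ± 0.08 and 0.20 ± 0.11, and the call was kept in 2 of 22 alternatives. It was lost without any 1 array (adjusted p from 0.122 to 0.146), and the spike-in value was -0.024. Sqstm1, whose protein p62 binds KEAP1, was higher by 0.39 ± 0.10 without a call (limma adjusted p = 0.142). Maff, a small MAF gene, had 0.0410, 0.0101 and 0.0200 against 0.0552, 0.0618 and 0.0754 (limma adjusted p = 0.185). Of its corn oil arrays, 1 of 3 was well above background.

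Other genes described as NRF2 targets, 21 of them tested, held 3 calls, all higher, where 0.949% of all genes tested were called higher. At an unadjusted p under 0.05, 8 were higher and 0 lower, against 10.9% and 6.73% of all genes. The median was 0.20, against 0.02. These counts include Gstm3, which passed the filter through the monuron arrays alone. Abcc2, an efflux pump for conjugated organic anions, had levels of 3.92, 3.78 and 4.20 in corn oil and 16.4, 18.4 and 18.6 in monuron, a rise of 2.17 ± 0.08 (limma adjusted p = 0.00387). Gstp1, a glutathione transferase, had 50.4, 62.3 and 57.2 against 170, 191 and 199, a rise of 1.72 ± 0.11 (limma adjusted p = 0.00735). Ephx1, microsomal epoxide hydrolase, had 9.26, 10.5 and 8.40 against 19.6, 16.5 and 20.4, a rise of 1.00 ± 0.12 (limma adjusted p = 0.0313). The groups were apart in all 3, and in 12 of the 21 they were apart and higher with monuron. Gstm3 is not among the 12. Of all genes well above background on all 6 arrays, 15% were higher without overlap. The log2 SD in corn oil and monuron was 0.08 and 0.10 for Abcc2, against 0.23 and 0.43 for Nqo1. Abcc2 and Gstp1 each kept the call in 20 of 22 alternatives, against 13 for Nqo1, 13 for Srxn1 and 12 for Ephx1. Leaving out any 1 of the 6 arrays ended the Ephx1 call (adjusted p from 0.0643 to 0.121), and left those of Abcc2 and Gstp1 in place.

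Hmox1, which encodes the inducible heme oxygenase, stood out on a single array. It had levels of 0.338, 0.469 and 0.405 in corn oil and 49.1, 0.857 and 0.859 in monuron. Its difference of 3.05 ± 1.61 (limma adjusted p = 0.390) was set by monuron replicate 1, and without that array it was 1.10 (limma adjusted p = 0.0984). For Nqo1 and Srxn1, monuron replicate 1 lay between the other 2. Gstm1, a glutathione transferase of the mu class, had 0.659, 3.57 and 2.76 against 20.8, 33.3 and 32.0. Its groups did not overlap, and its difference of 3.91 ± 0.65 was not called (limma adjusted p = 0.0624).

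**Figure D4:**
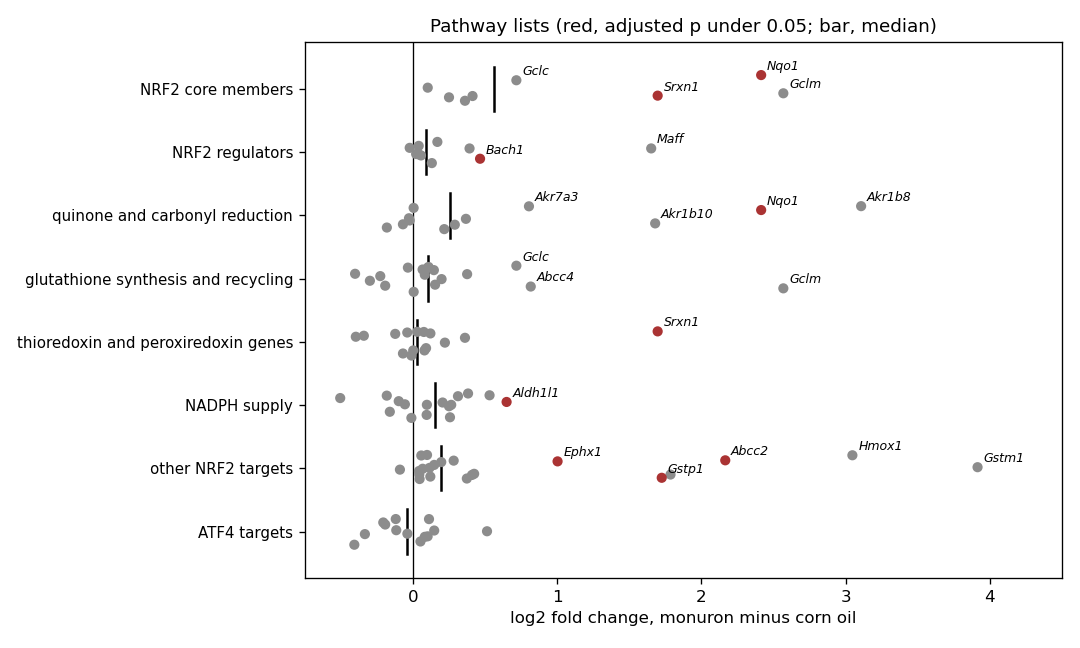
Log2 fold change of each tested gene in 8 lists around the NRF2 core targets; red points are called, vertical bars are list medians, and scatter along the vertical is for legibility. The core members have a median of 0.57 with Gclm in, and the ATF4 targets a median of -0.04.

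Nqo1 is also a target of the aryl hydrocarbon receptor, a ligand-activated factor that induces Cyp1 genes. Of the 4 receptor targets tested, Nqo1 was called, where 0.949% of all genes tested were called higher. At an unadjusted p under 0.05, 3 were higher and 0 lower, against 10.9% and 6.73% of all genes tested. The median was 1.54, against 0.02. These counts include Nqo1 itself, and Cyp1a2, which passed the filter through the monuron arrays alone. Cyp1a2 had 0 of 3 corn oil arrays well above background. Its monuron mean was 4.47-fold above the lowest signals well above background on those arrays, which as for Gclm is not a strict minimum. It was not called (limma adjusted p = 0.0763), and its highest level was on monuron replicate 1 (0.265, against 0.0615 and 0.0710). A dimmer Cyp1a2 probe, well above background on 1 monuron array, did not pass the filter. Ahrr, the receptor's repressor, was higher by 0.67 ± 0.24 (limma adjusted p = 0.246), and Aldh3a1, a further target, had -0.05 ± 0.09 (limma adjusted p = 0.803). Neither Cyp1a1 nor Cyp1b1 passed the detection filter.

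The genes whose log2 levels followed Nqo1 most closely over the 6 arrays were Mcat, Ywhab, Slc7a3l1, Prickle3 and Csmd1, with Pearson r of 0.999, 0.993, 0.993, 0.993 and 0.992. In 184 of 12063 genes with a symbol (1.53%) r was 0.95 or more. As a description over the same arrays, which share their scaling and group difference, r with Nqo1 was 0.96 for Srxn1, 0.92 for Me1, 0.80 for Txnrd1, Gclm and Gsr, 0.62 for Osgin1 and 0.46 for Gclc. Likeness in r is not likeness in size: Mcat differed by 0.19 between groups (limma adjusted p = 0.195), while Csmd1 was 5.07-fold higher (limma adjusted p = 0.0124).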

How the data were processed

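Rat renal cortex was measured on 1-colour arrays, 6 in all and 3 per group, with groups and replicate numbers from the labels. The authors deposited scanner files of spot intensity on a linear scale, and a value table; the submitters' processing notes name Agilent Feature Extraction 10.7. The authors' deposited table holds a linear ratio, equal for values of at least 0.1 to the processed signal over 1 constant per array within 0.0497%, so its scale is settled; the medians of its columns ranged from 0.1085 to 0.1121.

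Each processed signal was divided by its array's 75th percentile, taken over 61537 non-control probes, and put on the log2 scale. Control spots (1439 per array) and outlier spots were left out; 0 spots were saturated. The detection filter asked for well above background on every array of 1 group or both. Accessions were matched without versions to RefSeq gene names (GRCr8), which named 28206 probes (45.8%) and 15645 symbols. For each gene the brightest probe was tested with limma 3.58.1 in R 4.3.3 (lmFit, eBayes, two-sided). A gene above background in 1 group only is given as a fold of that group's mean over the lowest signal well above background on each dim array. The probe's own signal was used where that was higher. Such a fold is not a strict minimum, since a probe above that lowest signal need not be well above background. The code was tested on simulated data.

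The members, lists and alternatives were chosen with earlier results of these data known. Named are the 9 members, Nfe2l2, Keap1, Bach1, Nqo2, Slc3a2, Hmox1 and Alb, the called genes of the pathway lists, and the 5 genes most like Nqo1; called cell type markers are given as counts. Other genes were named after their values were seen, and 1 gene of the rule is not reported here. The number of arrays limits the precision.

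Other scalings tried were spike-in scaling, no scaling, median centring, quantile normalization, normexp (offset 50, on the median spot signal, since the files hold no mean) and the authors' table. Other filters and probe rules were detection on all 6 arrays or none at all, low values raised to a floor, all probes singly, and a gene's mean over probes without an outlier spot. Other fits used array weights, trend and robust eBayes, a replicate block, or a hepatocyte score as covariate, or left out 1 array or corn oil replicate 3 with monuron replicate 1, the arrays with most liver transcript signal.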

Additional observations from a re-analysis of the deposited data

How the results depend on the processing

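Over 22 alternatives the log2 fold change stayed above 0 for Nqo1 (1.93 to 2.65) and Srxn1 (1.21 to 1.89), and each was called in 13, with adjusted p-values of 0.00331 to 0.204 and 0.00464 to 0.177. The 2 members called higher became 3 with spike-in scaling, which added Gclm. They became 0 without the detection filter, with the replicate block, with the hepatocyte score as covariate and without corn oil replicate 3 and monuron replicate 1 together, and 0 to 1 when 1 array was left out.

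The 412 genes called became 707 with eBayes trend and robust, 769 with normexp, 20541 with spike-in scaling, 86 without the detection filter and 106 with the hepatocyte score. They became 0 with the replicate block, where limma gave 4557 genes and 6 members an unadjusted p under 0.05, and 0 without that pair, where it gave 4190 genes and 5 members. Leaving out 1 array gave 30 to 138. Same-numbered arrays correlated at -0.08, 0.11 and -0.17 in their deviations from the group means, and arrays of unlike number at -0.13 to 0.22. Deviations of 3 arrays from their mean constrain each other. These values therefore cannot decide whether the numbers pair the samples. The replicate block gave adjusted p-values of 0.102 for Nqo1 and 0.0598 for Srxn1. No scaling moved the median of all genes to 0.11. Higher and lower calls, 287 and 125, became 366 and 61 with no scaling, 449 and 320 with normexp and 312 and 20229 with spike-in scaling.

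Spike-in scaling moved the median of all genes to -0.46 and shifts every gene of an array alike. It turned the sign of Txnrd1 (-0.13), Me1 (-0.24), Gsr (-0.39), Osgin1 (-0.076), Bach1 (-0.024), Nfe2l2 (-0.47) and Keap1 (-0.36). Of these, Me1, Gsr, Nfe2l2 and Keap1 were called lower (limma adjusted p = 0.0416, 0.00641, 0.00583 and 0.00596). With this scaling 20229 genes were called lower. The sign of Nfe2l2 also turned without the pair (-0.056); leaving out 1 array gave -0.024 to 0.049, below 0 without corn oil replicate 3 or monuron replicate 1. The Gclc to Gclm ratio within an array was -1.85 (exact permutation p = 0.1) and 0.087 with normexp; it rests on corn oil signals of Gclm below background. Beyond these values the cause was not tested. The Slc7a11 to Slc3a2 ratio could not be run, since Slc7a11 was below background. Signal over background limits Gclm and Slc7a11.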
